A study of Arabidopsis thaliana with 8 samples.

Results

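The subject is a stretch of neighbouring protein-coding genes on Arabidopsis thaliana chromosome 1, AT1G67840 to AT1G67880, in which 3 adjacent loci gave lower signals in the voz1 voz2 double mutant. All probes of the scanner output that are named for 6 loci were taken. These are the middle loci AT1G67860, AT1G67865 and AT1G67870 and the flanking loci AT1G67840, AT1G67850 and AT1G67880, out of 25665 loci on the array. Each locus had 1 probe on 1 spot per array, so no second probe of a locus could be compared. The loci were chosen by the measured log2 difference between the genotypes on these same arrays and by their place beside each other, so that difference is given below as a description without a test.

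The samples were 4 voz1 voz2 and 4 wild type Col-0 samples, each hybridised alone (Cy3) to an Agilent oligonucleotide array. The mutant is also labelled Col-0 and carries disruptions of both VOZ1 and VOZ2, whose alleles and origin are not given in the sources used here. Whole untreated seedlings 14 days old were used, raised at 22 °C on diluted MS agar under a photoperiod of 16 h light and 8 h dark. The labels do not say whether replicates came from separate cultures, and p-values therefore reflect only how far these samples differ, which could be technical. In whole seedlings, fewer cells that express a gene and less RNA per cell cannot be told apart.

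The VOZ1 and VOZ2 proteins are transcription factors with a zinc finger, act in phytochrome B signalling and promote flowering. Genes that lie side by side on a plant chromosome are often expressed alike, through tandem duplication, shared regulatory sequence or a common chromatin state. Of the 6 loci, the RefSeq table used for names gives a symbol to AT1G67840 only. It is CSK, the chloroplast sensor kinase, a nuclear-encoded relative of bacterial two-component sensors that is known to tie the redox state of photosynthetic electron transport to the transcription of photosystem genes in the plastid. The other 5 are listed as protein-coding without a symbol, and no function is assigned to them here.

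Levels below are log2 processed signals minus the array's own 75th percentile, and a difference is the mutant mean minus the wild type mean, both on the log2 scale. Levels of different probes are not comparable. The share of probes well above background was 62.6% to 70.3% on the mutant arrays and 60.4% to 68.8% on the wild type arrays, and no spot was saturated. The 8 arrays lay on 2 slides, each scanned once and each with 2 arrays of each genotype. Replicates 1 and 3 of both genotypes were on slide 1, replicates 2 and 4 on slide 2. VOZ2 was at -3.93, -4.90, -3.84 and -4.36 on the mutant arrays and at 1.52, 1.09, 1.83 and 1.50 on the wild type arrays, and VOZ1 at -0.98, -1.25, -0.93 and -0.86 against 0.46, 0.49, 0.45 and 0.59. Both were lower on every mutant array than on any wild type array, although the place of either probe relative to the disruption is not known here. Of 24599 genes tested, 1091 passed limma at an adjusted p under 0.05 (4.44%), 668 higher (2.72%) and 423 lower (1.72%). The split was 75 higher and 19 lower after normexp background correction and 30 higher and 40 lower in the values as deposited. With slide as a block 3955 genes passed (16.1%; 8.13% higher and 7.95% lower). Blocking on replicate number gave 3314 (13.5%; 6.74% higher and 6.74% lower).

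AT1G67860 had levels of -2.52, -1.71, -2.49 and -1.46 on mutant replicates 1 to 4, against 0.98, 2.03, 0.82 and 2.15 on wild type replicates 1 to 4. The highest mutant array lay 2.28 below the lowest wild type array, so the groups did not overlap. The means were -2.05 ± 0.54 in the mutant and 1.50 ± 0.69 in wild type (SD, n = 4 each), a difference of -3.54 (SE 0.39), or 11.6-fold lower. In the scanner's own units this is a processed signal between 196 and 797 on the mutant arrays and between 1278 and 9041 on the wild type arrays, with an error estimated by the scanner software of about 10% of the signal (at most 10.1%) on every array. The probe was well above background on all 8 arrays.

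AT1G67865 is the next locus along, and its spot was close to the background on several arrays. Its levels were -9.31, -7.00, -9.14 and -7.46 on mutant replicates 1 to 4 and -3.82, -3.08, -6.59 and -2.67 on wild type replicates 1 to 4. All 4 mutant values lay below all 4 wild type values, by 0.41 at the closest pair, mutant replicate 2 and wild type replicate 3. The means were -8.23 ± 1.17 in the mutant and -4.04 ± 1.77 in wild type (SD, n = 4 each), a difference of -4.19 (SE 0.90), or 18.2-fold lower. The size of this difference is uncertain, because the spot stood well above background on only 2 mutant arrays (replicates 2 and 4) and 3 wild type arrays (all but replicate 3). On mutant replicates 1 and 3 the processed signals were 1.77 and 2.28, with error estimates of 99.7% and 99.6% of the signal, and those levels lie under the lowest level well above background on the same arrays, -7.07 and -6.84. On slide 2 the spot was well above background on all 4 arrays, and the difference there was -4.36. The processed signal there was 0.52 and 0.39 times the spot median less local background on mutant replicates 2 and 4. On wild type replicates 2 and 4 it was 0.82 and 0.84 times. The part of this adjustment by the scanner software in the difference was not tested. After normexp background correction, which adds an offset of 50 to each signal, the difference was -1.10 (SE 0.45).

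AT1G67870 gave a bright signal in both genotypes. Its levels were 3.0, 2.49, 2.32 and 1.94 on mutant replicates 1 to 4 and 4.63, 4.53, 4.80 and 4.71 on wild type replicates 1 to 4. The wild type arrays lay close together, and the highest mutant array was 1.53 below the lowest of them. The means were 2.44 ± 0.44 in the mutant and 4.67 ± 0.11 in wild type (SD, n = 4 each), a difference of -2.23 (SE 0.22), or 4.69-fold lower. Of all genes tested, 0.516% had a difference as low as this or lower. Processed signals were between 6447 and 13574 on the mutant arrays and between 20105 and 51191 on the wild type arrays.

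**Figure D1:**
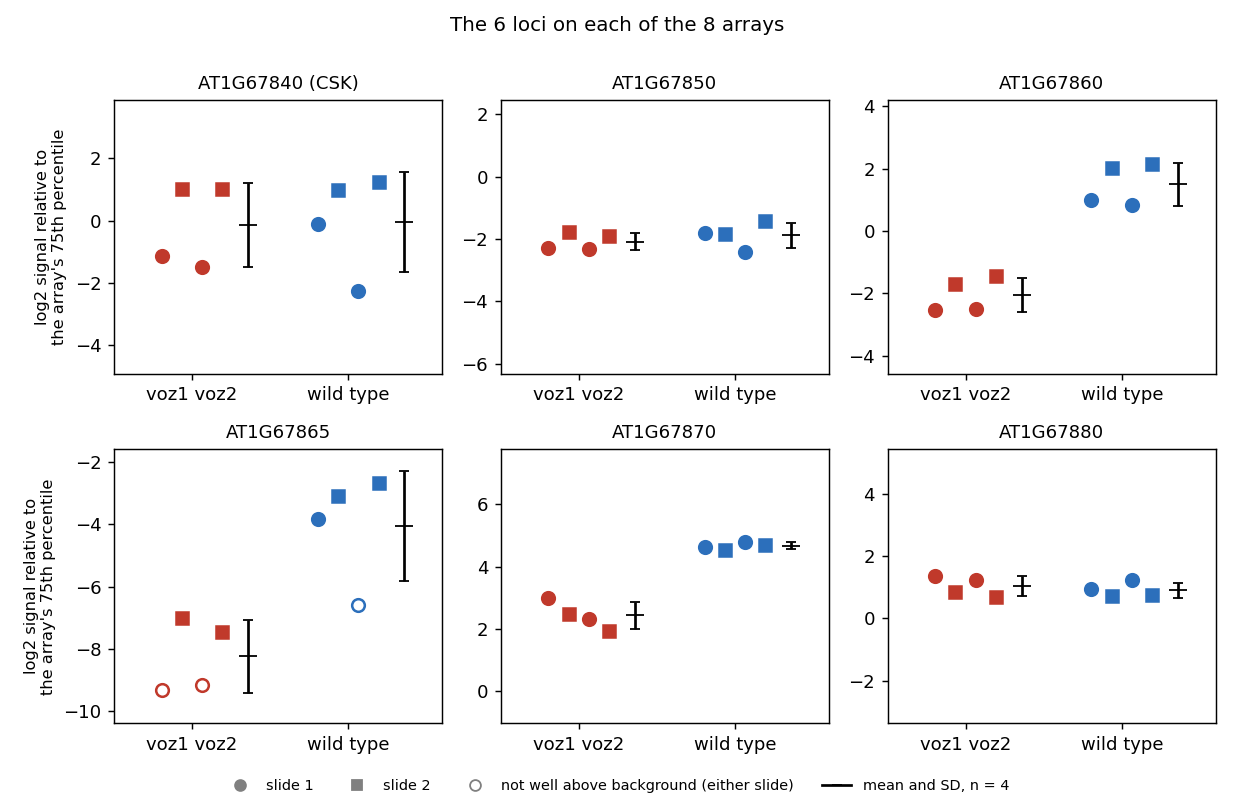
Log2 signal of the 6 loci relative to each array's 75th percentile, voz1 voz2 left and wild type right, with circles for slide 1, squares for slide 2 and open symbols where the spot was not well above background. Bars give the mean and SD of 4 arrays. All panels span the same number of log2 units. The 2 genotypes are apart for AT1G67860, AT1G67865 and AT1G67870 and overlap for the other 3 loci, and for AT1G67840 the slides are apart.

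The 3 flanking loci showed no such gap. AT1G67850, the nearest tested locus on the side of CSK, had levels of -2.30, -1.78, -2.33 and -1.92 in the mutant and -1.81, -1.84, -2.42 and -1.44 in wild type. The ranges overlapped, with a difference of -0.20 (SE 0.23). AT1G67880, the nearest locus on the other side, had levels of 1.37, 0.83, 1.24 and 0.69 in the mutant and 0.93, 0.71, 1.22 and 0.75 in wild type. These also overlapped, with a difference of 0.13 (SE 0.20). CSK had levels of -1.14, 1.02, -1.47 and 1.02 in the mutant and -0.10, 1.0, -2.27 and 1.23 in wild type. Its spread within each genotype, an SD of 1.35 in the mutant and 1.60 in wild type, was wider than its difference of -0.11 (SE 0.89). Of the 6 loci, 3 passed the threshold of the whole-table fit and lay lower on all 4 mutant arrays than on any wild type array. Over all genes tested 1.72% passed it on the lower side, and 7.85% had all 4 mutant values below all 4 wild type values, with 8.46% the other way round. The 3 were chosen for this difference, so nothing is read from that count.

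The differences were then followed outward along the chromosome. Between AT1G67850 and AT1G67860 the RefSeq order places AT1G67855 and AT1G67856. The AT1G67855 probe was not well above background on any of the 8 arrays, and no probe of the array is named for AT1G67856. Beyond the 6 loci, the list AT1G67700 to AT1G67990 holds 27 further loci on the array, of which 24 were bright enough to test. In limma 0 of the 24 passed the threshold in either direction, against 4.44% of all genes, and 4 had an unadjusted p under 0.05, against 23.6% of all genes. Their median difference was 0.026, beside -0.030 over all genes tested. The next tested locus outside CSK is FXG1 (AT1G67830), an alpha-fucosidase gene, which had a difference of 0.078 (SE 0.17). On the other side AT1G67890 had -0.0056 (SE 0.13). A second probe of AT1G67890, dimmer but well above background on all 8 arrays, was not used in the fit. Its levels were -2.82, -2.66, -2.58 and -2.82 in the mutant and -2.86, -2.82, -3.73 and -3.07 in wild type.

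The 4 outer loci with a small unadjusted p, named after their values were seen, did not adjoin the middle loci. CCOAMT (AT1G67980), the name of a caffeoyl-CoA O-methyltransferase gene, had -2.99 (SE 0.75, limma adjusted p = 0.0612), the one outer difference of the size seen at the middle loci. ABCI17 (AT1G67940), an ABC transporter family gene, had 0.83 (SE 0.20, adjusted p = 0.0547), ARR11 (AT1G67710), a response regulator gene of cytokinin signalling, had -0.72 (SE 0.26, adjusted p = 0.148), and AT1G67820 had 0.52 (SE 0.16, adjusted p = 0.108). With slide as a block CCOAMT (adjusted p = 0.0257), ABCI17 (0.0202) and ARR11 (0.0434) passed, 3 of the 24 beside 16.1% of all genes in the same fit. Blocked on replicate number, CCOAMT (0.0329) and ABCI17 (0.0333) did, 2 of the 24 beside 13.5% of all genes. ABCI17 also passed under quantile normalization (0.0481) and among probes well above background on all 8 arrays (0.0491).

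**Figure D2:**
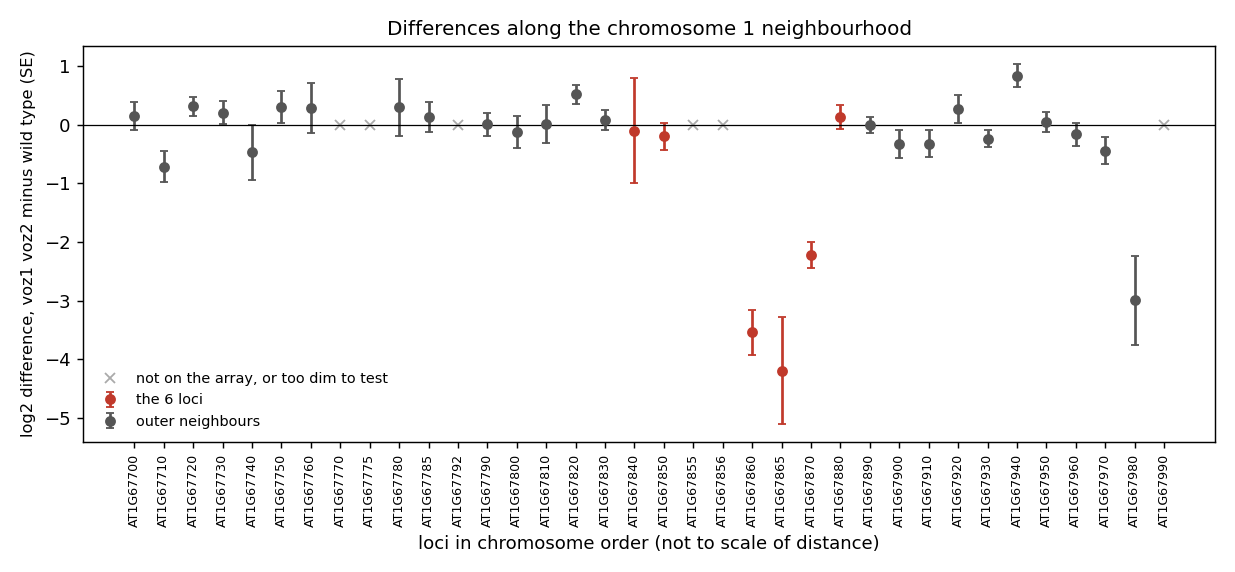
Log2 differences, voz1 voz2 minus wild type, with standard errors from limma (4 arrays per genotype) for loci in RefSeq chromosome order, the 6 loci in red and outer neighbours in grey. Crosses mark loci that are not on the array or were too dim to test. AT1G67860, AT1G67865 and AT1G67870 lie between -2.23 and -4.19, and CCOAMT (AT1G67980) is the one outer neighbour in that range.

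When the 20778 tested loci with a place in the RefSeq order of the nuclear chromosomes were walked through, AT1G67860 to AT1G67870 formed the 1 run of 3 or more neighbours that all passed the threshold on the lower side, and 0 such runs passed on the higher side. Where slide was a block, and 3955 genes passed, there were 17 such runs lower and 27 higher. Where the replicate number was, and 3314 passed, there were 7 lower and 17 higher. AT1G67860 to AT1G67870 was among the lower runs in both, and the longest lower run held 5 loci. Since the 3 loci were chosen for their difference, these counts describe the table and test nothing.

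Each slide holds both genotypes equally, so a difference between the slides is independent of the difference for which the loci were chosen. It was tested across all genes with genotype in the fit, a test added after the data had been seen. The slides also differ in scan, in replicate numbers and in brightness, and these cannot be told apart. Before scaling, the 75th percentile of signal was 722 to 1289 on slide 1 and 1370 to 2415 on slide 2. With a single slide on each side, the p-values describe differences between these sets of arrays only. Slide 2 and slide 1 differed in 28.3% of all genes tested at an adjusted p under 0.05 (14.4% higher on slide 2, 14% lower). CSK was 2.32 higher on slide 2 than on slide 1 (SE 0.42, limma adjusted p = 0.00906), a 4.98-fold difference that was present in both genotypes. Its means were 1.02 on slide 2 and -1.31 on slide 1 in the mutant, and 1.12 on slide 2 and -1.19 on slide 1 in wild type. The wide spread of CSK in the mutant thus lay largely between the slides. In wild type it lay also within slide 1, where replicates 1 and 3 were at -0.10 and -2.27. The standard error of its genotype difference was 0.42 with slide as a block and 0.30 with replicate number as a block, in place of 0.89. A slide difference at least as large as that of CSK, in either direction, was seen in 0.964% of the genes tested. The CSK call held in all 14 alternatives run for it (adjusted p 0.00133 to 0.0342), but all of them use the same spot and none takes its place on the array into account.

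The CSK spot lies in row 1 of the 532 rows of the array. The 29 tested probes of that row had a median slide difference of 2.32 (quartiles 1.73 and 3.20), and 25 of them (86.2%) were higher on slide 2 in limma, against 14.4% of all genes. In rows 2 to 10 the median was 0.63, and over all tested genes it was -0.10. CSK is itself among the 29 probes of row 1 and is the median probe of that row. No other of the 6 loci has its spot in the first 10 rows. The part of the spot's place in the slide difference of CSK was not tested. The processed signal of CSK was 1.53 to 2.44 times its spot median less local background on slide 1, with the largest ratio on mutant replicate 1. On slide 2, where CSK was higher, this ratio was smaller, 1.28 to 1.35. At the other loci this ratio was at most 1.23, so the levels of CSK rest on a larger upward adjustment by the scanner software. The levels of AT1G67865 rest on a downward one, with ratios of 0.13 to 0.52 on the mutant arrays and 0.31 to 0.84 on the wild type arrays.

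**Figure D3:**
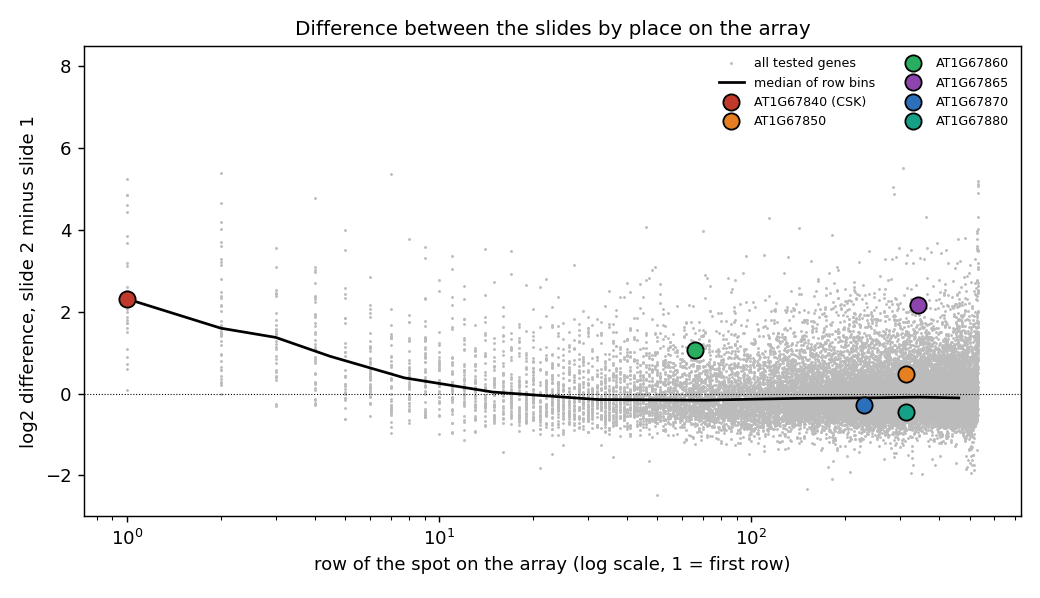
Log2 difference between slide 2 and slide 1, with genotype in the fit, against the row of each tested probe's spot (log axis, row 1 at the left). Grey points are all tested genes, the line joins medians of row bins, and large circles are the 6 loci. CSK sits at 2.32 in row 1 and is itself the median of the 29 probes there, while the medians of rows beyond 10 lie near 0.

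Both AT1G67860 and AT1G67865 also differed between the slides. AT1G67860 was 1.05 higher on slide 2 (SE 0.11, limma adjusted p = 0.00127), with mutant means of -1.58 on slide 2 and -2.51 on slide 1 and wild type means of 2.09 on slide 2 and 0.90 on slide 1. The call held in all 14 alternatives (adjusted p 0.000782 to 0.0387). Its spot lies in row 66 and column 3, and the 1344 tested probes of columns 1 to 5 beyond row 10 had a median slide difference of -0.062 and an upper quartile of 0.48, and 19.6% of them were higher on slide 2, against 13% in columns 6 to 80 and 14.4% of all genes. The part of the spot's place in the slide difference of AT1G67860 was not tested. AT1G67865 was 2.16 higher on slide 2 (SE 0.54, adjusted p = 0.0263), a call that was lost without mutant replicate 1, 2, 3 or 4 or wild type replicate 4 (0.0595 to 0.0761). With normexp its slide difference was -0.40 (adjusted p = 0.488). The dim arrays of this locus were all on slide 1. AT1G67880 was 0.44 lower on slide 2 (-0.44, SE 0.11, adjusted p = 0.0232). That call was lost on leaving out wild type replicate 3 or any one mutant array (0.0568 to 0.0751) and with normexp (0.0865), and in the deposited table the value was 0.45 (0.123). AT1G67870 (-0.27, SE 0.20, adjusted p = 0.336) and AT1G67850 (0.47, SE 0.16, adjusted p = 0.0663) did not pass. AT1G67850 did pass without wild type replicate 1 (0.59, adjusted p = 0.0277) and in the deposited table (1.37, adjusted p = 0.00833).

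The genotype difference was of similar size on each slide for AT1G67860 and AT1G67870. AT1G67860 had -3.41 on slide 1 and -3.67 on slide 2, and AT1G67870 had -2.05 and -2.40. AT1G67865 had -4.02 and -4.36, but its slide 1 value is uncertain, because most of its spots there were not well above background. The change of the difference between the slides was -0.27 (SE 0.22) for AT1G67860, -0.33 (SE 1.17) for AT1G67865 and -0.35 (SE 0.41) for AT1G67870. In limma the interaction of slide and genotype gave an adjusted p of 0.9997 for each of the 6 loci. Of 24570 genes 0 passed that interaction test, a share of 0%, and 386 had an unadjusted p under 0.05. With 2 arrays of each genotype per slide this test could detect only large changes, so no likeness between the slides is read from it. With slide as a block the standard errors of the genotype differences were 0.11 for AT1G67860, 0.54 for AT1G67865 and 0.20 for AT1G67870. The differences stayed below 0 under every alternative run, from -3.88 to -3.03 for AT1G67860 and from -2.57 to -2.05 for AT1G67870. For AT1G67865 they ran from -5.04 without wild type replicate 3 to -1.10 with normexp.

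**Figure D4:**
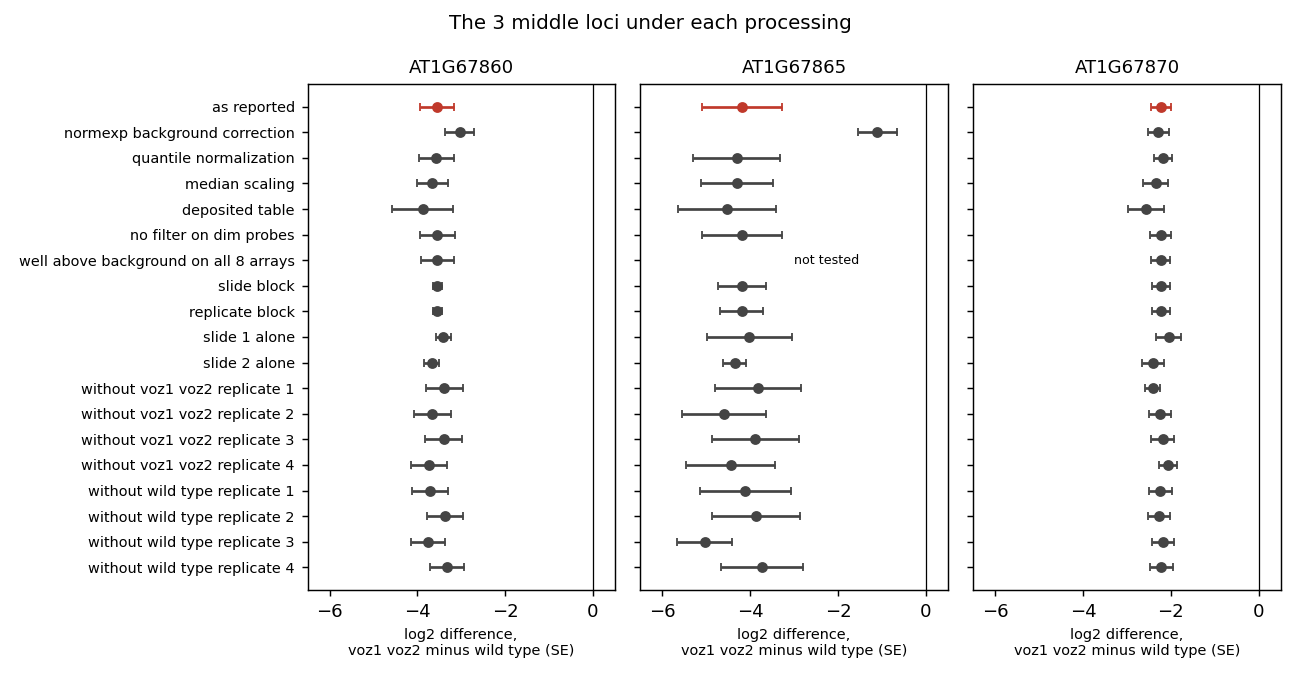
Log2 differences of the 3 middle loci, voz1 voz2 minus wild type, with standard errors, as reported (red) and under each alternative processing (grey). AT1G67860 and AT1G67870 vary little, and AT1G67865 is at -1.10 with normexp and was not tested among probes well above background on all 8 arrays.

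The profiles of the middle loci over the arrays are given as a description, since they hold the genotype difference for which the loci were chosen and, for AT1G67865, values not above background. After each profile was centred on its own mean over the 8 arrays, AT1G67860 and AT1G67865 differed by a root mean square of 0.94 log2 units, AT1G67860 and AT1G67870 by 0.97, and AT1G67865 and AT1G67870 by 1.74. Of 20693 loci compared, the nearest profile to AT1G67860 was that of AT2G20500 (0.45), followed by AT1G64360 (0.48) and GRF8 (0.54), a growth-regulating factor gene. The nearest to AT1G67865 were AT3G61280 (0.83), AT2G20500 (0.93) and AT1G67860 itself (0.94). Each of AT2G20500, GRF8 and AT3G61280 stood well above background on 2 mutant arrays and all 4 wild type arrays. The nearest to AT1G67870 were AT1G59660 (0.24), AT3G54730 (0.25) and TFL1 (0.30), which encodes a repressor of the floral transition. These genes have differences of -2.09, -1.93 and -1.74, close to that of AT1G67870.

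These neighbours in profile depend on the processing. With normexp 0 of the 3 nearest to AT1G67860, 1 of the 3 nearest to AT1G67865 and 0 of the 3 nearest to AT1G67870 remained among the nearest 3. All 3 remained in 4 of 14 alternatives for AT1G67860, 5 of 13 for AT1G67865 and 6 of 14 for AT1G67870. The measure is dominated by the difference between the genotypes, which all of these genes share in direction.

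**Figure D5:**
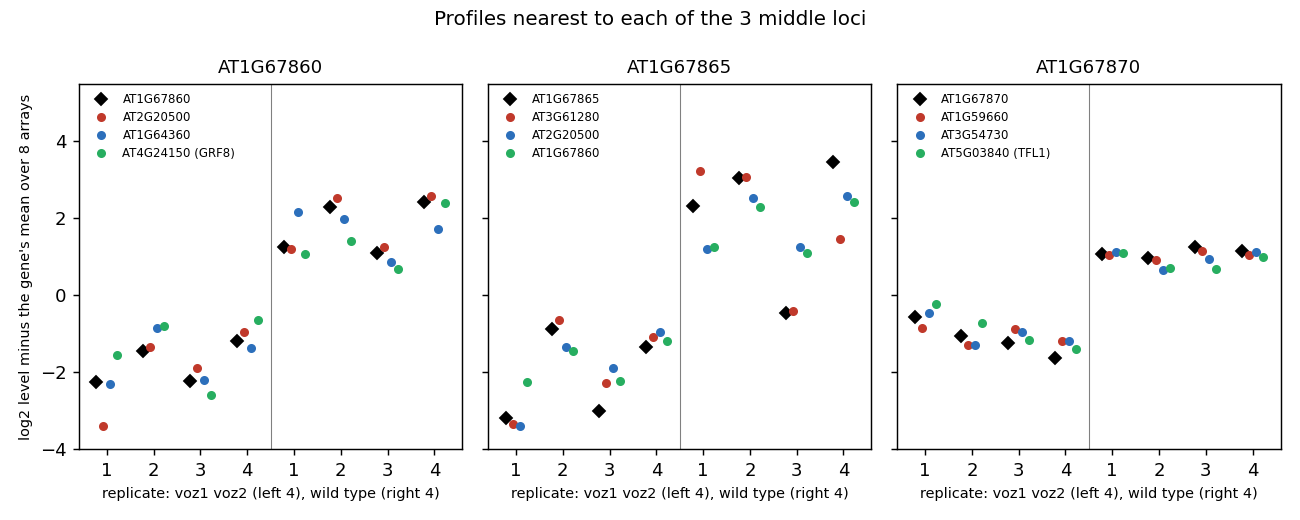
Log2 level of each gene minus its own mean over the 8 arrays, by replicate of voz1 voz2 (left 4) and wild type (right 4), for each middle locus (diamonds) and the 3 loci with the smallest root mean square difference from it (circles). The nearest profiles lie within 0.24 to 0.30 of AT1G67870 and within 0.83 to 0.94 of AT1G67865.

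The genes around CSK in plastid transcription were followed as a list, since CSK is known to act on the sigma factors that direct the plastid-encoded polymerase. Of the 6 sigma factor genes and the gene of the plastid casein kinase (AT2G23070), all tested, 0 passed limma in either direction, against 4.44% of all genes, and 1 had an unadjusted p under 0.05, against 23.6% of all genes. Their differences ran from -0.60 to -0.087 with a median of -0.43, beside -0.030 over all genes. SIGC had -0.59 (SE 0.25, adjusted p = 0.202), SIGF -0.43 (SE 0.21, adjusted p = 0.264) and SIGE -0.60 (SE 0.35, adjusted p = 0.339). SIGE, 1 of the 7, passed with slide (adjusted p = 0.0394, 16.1% of all genes passing) or the replicate number (0.0429, 13.5%) as a block. Between the slides 4 of the 7 differed, against 28.3% of all genes.

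Markers of the tissues in a whole seedling were set beside these values. All 5 green tissue markers and all 6 root markers were tested, and 0 of either passed between the genotypes, the median difference being -0.41 for green and 1.05 for root markers. The mean level per array ran from 4.56 to 5.07 in the mutant and from 4.94 to 5.76 in wild type for green markers, and from 1.40 to 2.25 in the mutant and from -0.73 to 1.42 in wild type for root markers. Of the flower markers 3 of 4 were tested, AP1 being too dim, with a mean level from -5.69 to -4.17 in the mutant and from -4.54 to -3.14 in wild type. Their median difference was -0.90, and 0 passed. None of the 3 seed markers was bright enough to test. The part of these markers in the differences of the middle loci was not tested.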

How the data were processed

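Spots were read with Agilent Feature Extraction 9.1.3.1, per the submitters' processing notes, and the deposited scanner output gives each spot's intensity. Its processed signal is background-subtracted and detrended, per the file headers. Values in the deposited series table are on a natural log scale and equal ln(processed signal) less a constant, 6.91 on mutant and 6.42 on wild type arrays. It served as an alternative. Per the labels, 0.8 µg of RNA was labelled per array.

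Outlier-flagged spots were left out, log2 signals were averaged per probe, and the 75th percentile of an array's non-control probes was subtracted from it. A probe was tested if 4 or more of the 8 arrays had it well above background. The probe with the highest mean stood for its locus. Fits used limma 3.58.1 (R 4.3.3) with lmFit and eBayes, adjusted over all genes by Benjamini-Hochberg at a threshold of 0.05. They were also run on simulated data. The simulated noise held no effect of slide or replicate number, so those runs do not cover such effects. Normexp used spot and background medians, in place of the planned means, as the files used hold medians. Symbols and gene order came from the RefSeq table of assembly TAIR10.1, and none of its coordinates is printed, since no source used here gives the build behind the probes.

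The members and lists were chosen with earlier results of these data known. Named are the 6 loci with all probes, VOZ1 and VOZ2, outer neighbours past the threshold with the nearest tested one on each side, the 3 nearest profiles of each middle locus, and up to 3 genes with the smallest p of each other list. AT1G67820 falls outside this rule and was named after its values were seen, for an unadjusted p under 0.05. Over genes, deviations of the mutant and wild type arrays of the same number from their group means correlated at 0.32, 0.51, 0.46 and 0.61. Arrays of the same slide with other numbers correlated at 0.27 to 0.54. Only 0.61 lies above that range, so pairing by number and the shared slide cannot be told apart here. Families of AT1G67850 and AT1G67880 and promoter motifs, planned as lists and searches, were not analysed here. The number of arrays limits the precision.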

Additional observations from a re-analysis of the deposited data

How the results depend on the processing

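The alternatives were normexp background correction, quantile and median scaling, the deposited table, no filter and a filter on all 8 arrays, slide and replicate number as blocks, each slide alone, and each array left out. Over these 18, AT1G67860 moved by less than its spread between replicates in all 18. The same held for AT1G67840 and AT1G67850, although the sign of AT1G67840 varied (-0.85 to 0.34 without 1 array). AT1G67865 moved to -1.10 with normexp and gave no value with the filter on all 8 arrays. In the deposited table, whose constants lower the mutant arrays, AT1G67870 was at -2.57 and AT1G67880 at -0.21. Without 1 array the ranges were -3.76 to -3.32 for AT1G67860, -5.04 to -3.73 for AT1G67865, -2.42 to -2.06 for AT1G67870, -0.38 to -0.057 for AT1G67850 and 0.020 to 0.24 for AT1G67880.

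The replicate block and the slide block left the member differences as they were and changed only the errors. The 1091 genes past the threshold became 94 with normexp, 715 with median scaling, 70 in the deposited table, 514 with no filter, 3955 with slide and 3314 with the replicate block, 0 on slide 1 alone and 0 on slide 2 alone, and 387 to 1506 without 1 array. The cause was not tested. Outer neighbours past the threshold numbered 1 with quantile normalization, 1 with the filter on all 8 arrays, 3 with slide and 2 with the replicate block, against 0. For the plastid transcription list it was 1 with either block, against 0. The interaction count was 0 to 14 without 1 array. The slide difference turned to -0.40 for AT1G67865 with normexp, and to 0.45 for AT1G67880 in the deposited table, which keeps array brightness. Signal over background limits AT1G67865, whose spot was not well above background on 3 of the 4 slide 1 arrays.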

Other observations

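In the array's own numbering, whose genome build no source used here gives, 7 probes are named by a position on chromosome 1 between 25409444 and 25480566. One of them, named for 25444773 to 25444832 with its numbers running downward, was not well above background on any of the 8 arrays. Whether it lies within one of the 6 loci is not known here. Of the other 6, 2 were bright enough to test, with differences of -0.34 (SE 0.13, limma adjusted p = 0.169) and -0.065 (SE 0.18, adjusted p = 0.864). Too dim to test was the probe named for 25480507 to 25480566, well above background on 3 arrays. Its means were -8.34 in the mutant and -6.64 in wild type, with wild type replicate 3 at -8.25. The probe named for 25421700 to 25421759, well above background on 1 array, went the other way, with means of -7.15 and -7.69. The rest were well above background on 0 arrays.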
